A study of Mus musculus with 2 samples.

Results

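Expression of 10 mouse pigmentation genes was followed in single cells of dorsal skin from control mice and from mice given testosterone propionate (TP). The genes were chosen by symbol, as the members of a list of pigment genes and papilla switches, and all 10 were found among the 32285 genes of the count tables. They were Mitf, Dct, Tyr, Tyrp1, Pmel, Kit, Mc1r, Kitl, a (agouti) and Edn3. Of these, 7 act in the pigment cell itself and are called melanocyte-side genes here, and 3 (agouti, Edn3 and Kitl) encode secreted or membrane-bound signals that pigment cells receive and are called papilla-side genes. The data went against part of that grouping, since most Kitl was not found in papilla cells.

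Hair colour is made by melanocytes of the growing hair bulb, which pack melanin into melanosomes and pass them to the keratinocytes of the hair shaft. MITF is the transcription factor that switches on the pigment enzymes, tyrosinase (Tyr) carries out the rate-limiting step of melanin synthesis, and Tyrp1 and Dct act further along the eumelanin branch. Pmel forms the fibrils on which melanin is laid down. The melanocortin receptor Mc1r drives dark eumelanin, and agouti protein from the dermal papilla, the mesenchymal core of the bulb, antagonises it, so that a pulse of agouti gives the yellow band of an agouti hair. Kit and its ligand Kitl, and endothelin 3 (Edn3) through the receptor Ednrb, support the growth, migration and survival of melanocytes. C3H mice carry a working agouti gene and have banded hair.

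The control group received vehicle and the TP group received 0.5 mg of TP per day under the skin, a model of androgenetic alopecia (AGA). Both groups were male C3H/HeN mice, 7 weeks old at the start and 9 weeks old at harvest, and the skin of 15 mice per group was pooled into 1 library. Both groups were shaved. Each library was made in droplets from the 3' ends of transcripts, and molecules were counted by their unique molecular identifiers (UMIs). With 1 library per group there was no replicate check, so no test was made, and TP cannot be told apart from other differences between the pools. Levels are in CPM (counts-per-million), the UMIs of a gene divided by all UMIs of the cells named and scaled to that base, and are compared between cells and libraries but not between genes. Ranges in brackets are exact 95% intervals that cover counting error only.

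After filtering, 39076 control cells with 108552396 UMIs and 18542 TP cells with 136616579 UMIs remained, with medians of 2066 and 4972 UMIs per cell. Mitochondrial content above the limit of 10% removed 7.58% of control barcodes and 22.6% of TP barcodes. The libraries shared 303 barcode sequences, which is 0.663% of the control and 1.17% of the TP barcodes. Because TP cells were deeper, detection (the share of cells in which a gene had at least 1 UMI) is given after every cell was thinned to 1000 UMIs, and 5359 control and 831 TP cells below that depth were left out of shares.

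Cells were clustered without the 10 genes and without the pathway genes named further on, and clusters took names from other markers. The melanocyte-like cluster held all 8 naming markers (Mlana, Slc45a2, Oca2, Gpr143, Slc24a5, Trpm1, Sox10 and Pax3), with a summed level of 12129 CPM in control and 11255 in TP. Between the libraries these markers ranged from 0.364 times the control level (Oca2) to 1.57 times (Mlana). Dermal papilla cell (DPC)-like cells were the cluster led by Vip, Ndnf and Bmp6, with all 10 papilla markers present and summed levels of 15116 and 18702 CPM. Another cluster, led by Luzp2 with Sostdc1 among its leading genes, also held all 10 papilla markers, at 14782 and 12110 CPM. It stayed unnamed because Sostdc1 counted as an upper hair follicle marker, and it is called the Luzp2 and Sostdc1 cluster here.

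Sequence bears on the melanocyte-side genes because MITF recognises a short element, the M-box, in the promoters of pigment enzymes. The M-box core TCATGTG was searched on both strands in the 250 bases before each annotated start site (RefSeq, GRCm38.p6), and it overlaps the shorter E-box CATGTG. Start-site windows were found for 9 of the 10 genes, all except Pmel, and 4 of them held the core: Dct, Tyr, Tyrp1 and Mc1r. Of all 32851 windows of that length, 3.25% held it. Positions count back from the start site, so that -1 is the base before it. The matches began at -22 in Tyr, -47 in Tyrp1, -52 in Mc1r and -151 in Dct, and Dct held another match on the opposite strand beginning at -232. The Tyrp1 start site of the RefSeq windows lies inside the gene span given for Tyrp1 further on, whose first base is upstream of it. CATGTG was in 12.3% of windows and in the same 4 members, and the related CACGTG was in 6.02% of windows and in no member. A match is a description of letters, not a shown site. The stretches around the matches are printed 5' to 3' in the direction of the gene, with the matched letters in capitals, and lie at chr14:118052366-118052496 (minus strand), chr7:87493513-87493559 (minus strand), chr4:80834141-80834197 (plus strand) and chr8:123407005-123407061 (plus strand) in the order shown.
Dct: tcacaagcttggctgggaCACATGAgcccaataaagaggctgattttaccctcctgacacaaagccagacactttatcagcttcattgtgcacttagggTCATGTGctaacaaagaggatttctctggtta
Tyr: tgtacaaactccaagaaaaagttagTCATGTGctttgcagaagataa
Tyrp1: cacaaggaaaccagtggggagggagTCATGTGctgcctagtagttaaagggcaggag
Mc1r: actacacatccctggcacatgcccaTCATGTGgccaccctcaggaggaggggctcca

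Where each gene was expressed was asked before any difference between the libraries. The 7 melanocyte-side genes had their highest level in melanocyte-like cells in both libraries, agouti and Edn3 had theirs in papilla clusters, and Kitl had its highest level in the epithelium. Melanocyte-like cells held 60.6% of all Dct UMIs in control and 88.7% in TP, 78.2% and 91.7% of those of Tyr, and 58.0% and 90.7% of those of Pmel. Mitf was the exception among pigment genes, with 17.6% of its UMIs in melanocyte-like cells of control and 14.3% in TP. Kit had 11.3% and 37.2% there. The papilla clusters together held 89.9% of agouti UMIs in control and 90.0% in TP, and 82.0% and 84.1% of those of Edn3, but 2.47% and 0.581% of those of Kitl.

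**Figure D1:**
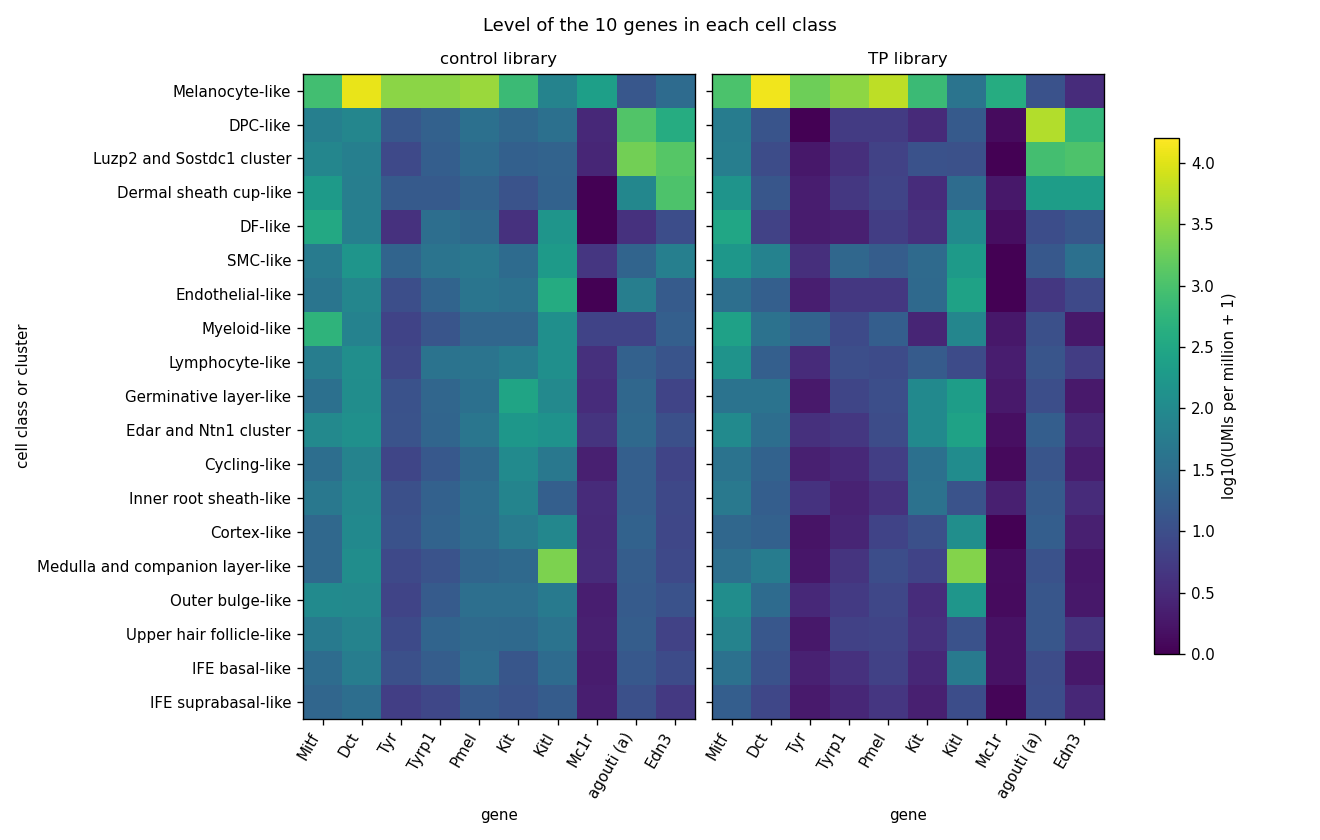
Level of each of the 10 genes (columns) in each cell class or cluster (rows), as log10 of CPM plus 1, in the control library (left) and the TP library (right). Melanocyte-side genes are brightest in the top row, agouti and Edn3 in the papilla clusters, and Kitl in medulla and companion layer-like cells.

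Melanocyte-like cells made up a similar share of both libraries under the settings chosen, with 444 of 39076 control cells (1.14%, 1.03 to 1.25) and 198 of 18542 TP cells (1.07%, 0.925 to 1.23). The share in TP was 0.940 times that in control (0.791 to 1.11). This ratio depended on how doublets (barcodes with more than 1 cell) were removed and on how the cells were defined. When the share of barcodes removed as doublets was raised from 7.5% to 15%, the cluster lost 376 of its 444 control cells and 55 of its 198 TP cells, and the ratio was 4.43. Counting instead every thinned cell with UMIs of at least 2 naming markers, whatever its cluster, gave a ratio of 0.569. Before thinning, 421 of 890 such control cells and 166 of 246 such TP cells lay in the melanocyte-like cluster. Background of the melanocyte gene Dct in other cells was higher in control, as given further on. The part of such background in the ratio of 0.569 was not tested. At the chosen setting, doublet removal had already taken 204 of 1094 control barcodes with at least 2 naming markers (18.6%) and 15 of 261 in TP (5.75%). Melanocytes could not be shown to be more or less frequent after TP.

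Within melanocyte-like cells none of the 7 melanocyte-side genes differed by 2-fold or more, except that with 15% removed as doublets all 7 did, with ratios from 2.16 to 8.34. The largest differences were a higher level of Pmel and Mc1r and a lower level of Tyr in TP, while Tyrp1 and Kit had ratios near 1. As background, 4.34% of the 7213 genes with at least 50 UMIs in these cells passed 2-fold towards TP and 8.58% passed 2-fold towards control (CPM ratios with 1 UMI added to each sum), and the median gene had a log2 ratio of -0.13. All 7 genes had over 50 UMIs.

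Mitf (chr6:97807002-98021360) had 1056 UMIs in control and 1277 in TP, or 842 (792 to 895) and 1042 (986 to 1101) CPM. The TP level was 1.24 times the control level (1.14 to 1.34). Its share of thinned cells with a UMI was 47.4% of 382 control cells and 59.4% of 175 TP cells. The intervals of the 2 levels did not overlap, but those of the shares did (42.3 to 52.5% and 51.8 to 66.8%). In the subclusters described further on, the Mitf ratio differed in direction. It was 0.710 and 0.407 in subclusters 0 and 4, and 1.46, 1.12 and 1.59 in subclusters 1, 2 and 3.

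The enzymes of melanin synthesis had unequal ratios over all melanocyte-like cells. Tyr (chr7:87424771-87493512) stood at 2932 CPM in control (2838 to 3029) and at 1894 in TP (1818 to 1973), which is 0.646 times the control level (0.613 to 0.681). It was detected in 85.6% of thinned control cells (327 of 382, 81.7 to 89.0) and in 63.4% of thinned TP cells (111 of 175, 55.8 to 70.6). Tyrp1 (chr4:80834123-80851736) stood at 2980 and 3076 CPM, a ratio of 1.03 (0.986 to 1.08) whose interval included 1. Dct (chr14:118012790-118052246) stood at 11549 and 12795 CPM, a ratio of 1.11 (1.08 to 1.13), and was detected in 96.3% and 97.1% of thinned cells. The control and TP intervals of the Tyr level and of its share of cells lay apart. The contrast between the enzymes depended on the setting. With subclusters, described further on, weighted as in control, the ratios were 0.782 for Tyr, 0.786 for Tyrp1 and 0.917 for Dct, and with 15% removed as doublets they were 2.16, 4.19 and 3.79.

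Pmel (chr10:128695888-128720238) stood at 3746 CPM in control (3640 to 3855) and 6048 in TP (5911 to 6187), which is 1.61 times the control level (1.56 to 1.68). It was detected in 58.6% of thinned control cells and 72.0% of thinned TP cells. Mc1r (chr8:123407082-123410744) stood at 238 and 400 CPM, a ratio of 1.68 (1.45 to 1.95), on 298 and 490 UMIs. Of these, 246 and 445 lay in subcluster 1, described further on, where the ratio was 1.08 (0.920 to 1.26). A UMI of Mc1r was seen in 9.95% of thinned control cells and 18.9% of thinned TP cells. Kit (chr5:75574987-75656722), the receptor tyrosine kinase that melanocytes need to survive, stood at 722 and 715 CPM, a ratio of 0.990 (0.902 to 1.09).

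**Figure D2:**
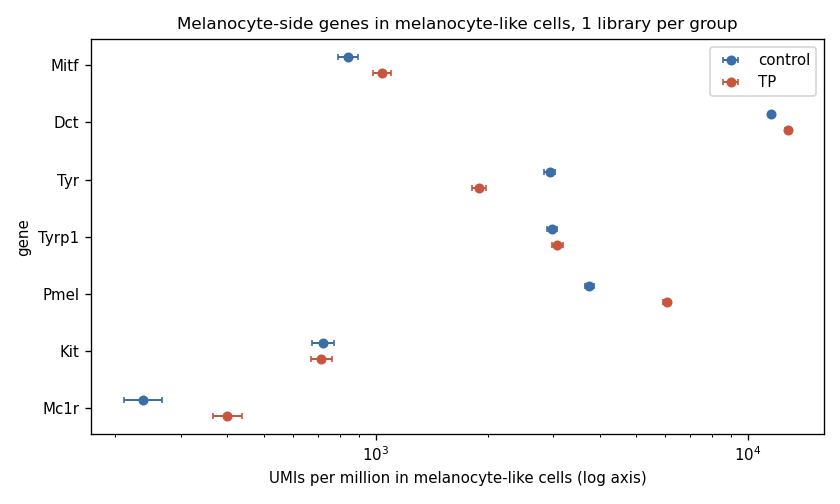
CPM (log axis) of the 7 melanocyte-side genes in melanocyte-like cells of the control (blue) and TP (red) library. Bars are exact Poisson 95% intervals; Pmel and Mc1r lie higher in TP (ratios 1.61 and 1.68), Tyr lies lower (0.646), and Kit and Tyrp1 lie close together.

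Depth and RNA make-up moved with these results. Melanocyte-like cells had a median of 1964 UMIs in control and 2786.5 in TP, ribosomal protein genes took 9.34% and 13.4% of their UMIs, and the nuclear RNA Malat1 took 1.76% and 1.27%. The 6 Schwann cell markers summed to 163 and 278 CPM, with 3 of the 6 at 3 or more UMIs in both libraries, and the 6 mast cell markers to 2.39 and 2.45. Summed markers of other classes also differed in these cells, with inner root sheath markers at 2774 and 337 CPM, IFE suprabasal markers (interfollicular epidermis) at 2355 and 4433, papilla markers at 285 and 41.6 and dermal sheath cup markers at 201 and 369. The part of these differences in the results was not tested. The ratios with 15% removed as doublets, from Tyr as the lowest to Pmel as the highest, rested on the 68 control cells that were left. With the other settings tried, Tyr stayed between 0.525 and 0.782 of the control level.

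Detection of Tyr and Dct in the same cell showed the same pattern as the levels. Dct without Tyr was found in 45 of 382 thinned control cells (11.8%, 8.72 to 15.4) and in 60 of 175 thinned TP cells (34.3%, 27.3 to 41.8). Tyr without Dct was found in 4 control cells (1.05%) and 1 TP cell (0.571%). A cell had a UMI of a median of 4 of the 7 melanocyte-side genes in control and 5 in TP, all 7 were seen in 2.62% and 3.43% of cells, and none in 1.31% and 1.71%.

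Melanocyte-like cells fell into 5 subclusters, and Tyr and Pmel ranged more widely over the subclusters than between the libraries. Subclusters were drawn from variable genes other than the members, centred and scaled within each library. Expression in the same cells made them, so these contrasts are a description. Subcluster 0, led by Gpr158 and Hs6st3, held 152 control and 37 TP cells and had the highest Tyr level, 4785 and 4992 CPM, with Pmel at 1238 and 1520. Subcluster 1, led by Gng11 and Mlana, held 120 and 69 cells and had the highest Pmel level, 7997 and 7898 CPM, with Tyr at 2603 and 2011. Its control cells had a median of 1936.5 UMIs and its TP cells 11070, and it held 484413 of 1253580 control UMIs and 813364 of 1225170 TP UMIs of the class, so the TP levels of the class rested mostly on it. There Dct, Tyrp1 and Tyr were all lower in TP, with ratios of 0.825, 0.707 and 0.773. In subclusters 0 and 1, which held most control cells, the TP to control ratio was 1.04 and 0.773 for Tyr and 1.23 and 0.988 for Pmel, nearer to 1 than over all melanocyte-like cells. In subclusters 2, 3 and 4, with fewer control cells, the ratio was 0.432, 0.561 and 0.468 for Tyr. For Pmel it was 4.19 (3.56 to 4.93), 1.03 and 1.96 there. The ratios of Tyr in these subclusters, and of Pmel in subclusters 2 and 4, thus lay further from 1. For Mc1r the ratio was 1.08 in subcluster 1, which held most of its UMIs, and 0.947 and 0.487 in subclusters 0 and 3. It was 3.41 and 3.37 in subclusters 2 and 4, on 12 and 10 TP cells.

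Cell numbers per subcluster were unequal between the libraries. Subcluster 3, led by Csmd1 and Mylk, held 23 control cells (5.18%) and 70 TP cells (35.4%), and its Tyr level was 1699 CPM in control and 952 in TP. Subcluster 2, led by Dach1 and Ror2, held 116 control cells (26.1%) and 12 TP cells (6.06%), with Tyr at 2025 and 874. Its leading genes included Lgr5, Cdh6 and Kcnh1, which are also among those of outer bulge-like, inner root sheath-like and cortex-like clusters. Over both libraries its Dct level was 5128 CPM, beside 5013 in subcluster 4 and 10445, 16262 and 11034 in subclusters 0, 1 and 3. Subcluster 4, with 33 and 10 cells, was led by the epidermal genes Skint5 and Skint6, and summed Krt1, Krt5, Krt10 and Krt14 reached 8486 and 22392 CPM in it, against at most 3770 in subclusters 0 to 3. When subclusters were given their control weights in both libraries, the ratio was 0.782 for Tyr, 1.21 for Pmel and 1.23 for Mc1r. It was 1.05 for Mitf, 0.858 for Kit and 0.917 for Dct, so the higher level of Dct in TP did not hold. With finer clustering of all cells (resolution 2), the class was split otherwise. A cluster led by Ptgds, Mlana and Pmel held 53 control and 100 TP cells, and one led by Fstl4 held 391 and 98. Ratios weighted by those clusters were not computed, so the weighted ratios rest on the subclusters chosen. Ribosomal protein genes took 6.21% and 4.62% of UMIs in subcluster 0 and 11.2% and 14.7% in subcluster 1.

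**Figure D3:**
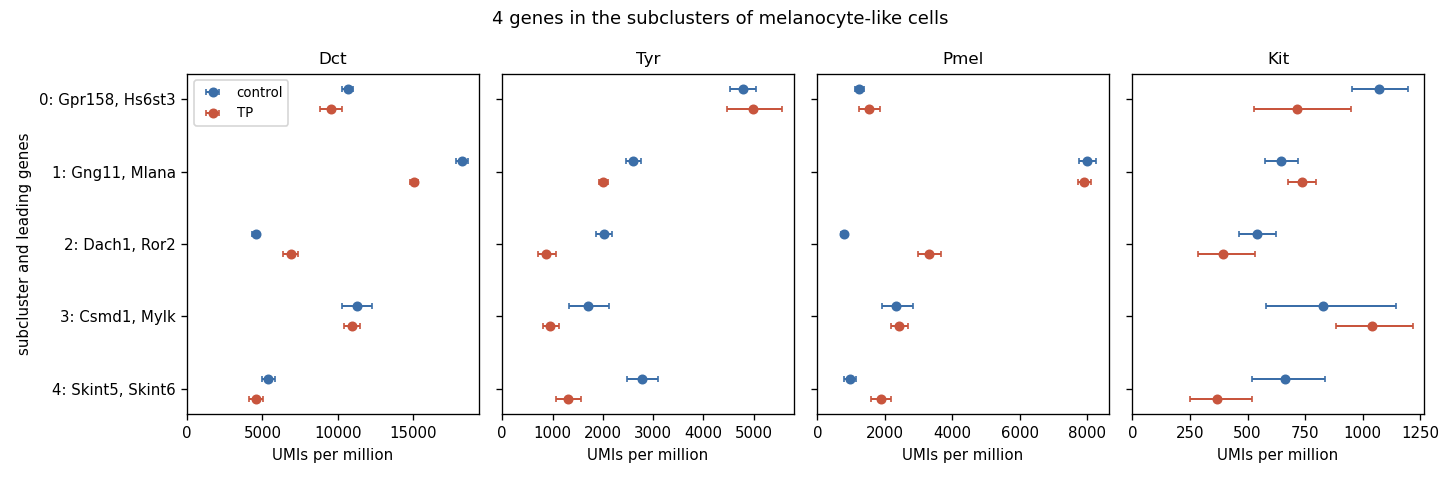
CPM of Dct, Tyr, Pmel and Kit in the 5 subclusters of melanocyte-like cells, control in blue and TP in red, with exact Poisson 95% intervals. Tyr is highest in subcluster 0 (4785 and 4992) and Pmel in subcluster 1 (7997 and 7898).

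Other pigment genes were read from lists of 31 genes in melanocyte-like cells. Of 17 melanosome and pheomelanin genes, 14 had at least 50 UMIs, with 1 past 2-fold higher in TP, 1 past 2-fold lower, and a median log2 ratio of -0.27. The higher gene was Slc7a11, the cystine transporter used for yellow pheomelanin, with 41 UMIs in control and 134 in TP, or 32.7 and 109 CPM (ratio 3.34, 2.34 to 4.87). The lower gene was the copper transporter Atp7a, which loads tyrosinase with copper, at 132 and 64.5 CPM (ratio 0.490, 0.370 to 0.644). Atp7a did not reach 2-fold with TMM scaling, which sets the bulk of genes to the same level in both libraries.

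None of the 6 receptor and signalling genes passed 2-fold, and their median log2 ratio was 0.44. Ednrb, the receptor for Edn3, stood at 917 and 1012 CPM (ratio 1.10, 1.02 to 1.198). Of 8 genes of transcription and survival, 7 had at least 50 UMIs, 2 were at least 2-fold lower and the median log2 ratio was -0.52. The lower genes were Lef1, a mediator of WNT signals, at 530 and 224 CPM (ratio 0.423, 0.366 to 0.488), and Irf4, which acts with MITF on Tyr, at 227 and 92.2 CPM (ratio 0.407, 0.324 to 0.508). Ratios of list genes were not weighted by subcluster. The part of transcripts of other classes in them, whose markers differed between the libraries as given above, was not tested. Together 1 of the 27 list genes with 50 UMIs was past 2-fold higher and 3 were past 2-fold lower, beside the 4.34% and 8.58% of all genes.

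Melanocyte transcripts were also found as background in other cells, and for Dct that background was higher in control. Lymphocyte-like cells, which should lack Dct, had a Dct UMI in 40 of 296 thinned control cells (13.5%) and in 6 of 241 thinned TP cells (2.49%). Their median depths were 1513 and 2266.5 UMIs. This cluster was mixed, with Cd3e and Cd3g but also Il1b, Cd74 and H2-Aa among its leading genes. Its marker score was 7.55 for lymphocytes and 5.58 for myeloid cells. With finer clustering (resolution 2), a myeloid-like cluster led by Cxcl2 and Il1b held 134 control and 220 TP cells. The lymphocyte-like cluster then held 233 and 58. The same mixed class is the reference for agouti, Kit and Kitl further on. Dct outside melanocyte-like cells stood between 32.2 and 155 CPM in the named classes of control and between 5.72 and 72.9 in those of TP. The TP levels differed by more than counting error. Medulla and companion layer-like cells had 56.1 CPM (47.2 to 66.2), lymphocyte-like cells 17.6 (9.86 to 29.1) and IFE suprabasal-like cells 6.71 (5.85 to 7.65). Whether all of this Dct is background was not tested. In DPC-like cells Dct was at 83.8 and 11.1 CPM and Pmel at 33.9 and 4.45, and Tyr had 74 UMIs in control and 0 in TP (0 of 442 thinned cells, which by the limit of 3 counts allows up to 0.679% of cells with a UMI at this depth). These counts in DPC-like cells are read as background and not as expression. Tyr in myeloid-like cells had 1 UMI in control and 24 in TP (21.0 CPM, 13.5 to 31.3), the highest TP level outside melanocyte-like cells. A Tyr UMI was seen in only 2 of 210 TP cells of that class after thinning (0.952%), and in the same share without thinning. The 24 UMIs thus came from very few cells, which the interval does not cover.

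Mitf was found in fibroblast-like and myeloid-like cells at higher ratios to Dct than in melanocyte-like cells. In melanocyte-like cells there were 0.0729 Mitf UMIs per Dct UMI in control and 0.0815 in TP. In dermal fibroblast (DF)-like cells this number was 5.32 and 53.9, and in myeloid-like cells 7.67 and 6.93. Mitf stood at 343 and 308 CPM in DF-like cells (ratio 0.900, 0.745 to 1.10) and at 544 and 255 in myeloid-like cells (ratio 0.469, 0.370 to 0.599), the latter on 60 control cells and 210 TP cells. Mitf was higher in TP in smooth muscle cell (SMC)-like cells, at 53.9 and 167 CPM (ratio 3.10, 1.74 to 5.87). It was also higher in the lymphocyte-like class, at 58.4 and 144 (ratio 2.48, 1.73 to 3.60). Finer clustering split that class into lymphocyte-like and myeloid-like cells in unequal shares between the libraries, and the part of this was not tested. Mitf was also measured in dermal sheath cup-like cells, at 191 and 146 CPM, and in outer bulge-like cells, at 99.8 and 114. In control the order of Mitf levels was melanocyte-like, myeloid-like, DF-like and dermal sheath cup-like, and in TP it was melanocyte-like, DF-like, myeloid-like and SMC-like. In TP the intervals of SMC-like (128 to 214) and dermal sheath cup-like cells (134 to 160) overlapped.

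Agouti (chr2:154950599-155051012) was, within DPC-like cells, the papilla-side gene with the largest difference between the libraries. There it had 6595 UMIs in control and 16140 in TP, or 1130 (1103 to 1158) and 5131 (5052 to 5211) CPM, a ratio of 4.54 (4.41 to 4.67). In the Luzp2 and Sostdc1 cluster the order was the opposite, at 2008 (1968 to 2048) in control and 874 (843 to 906) in TP, which is 0.435 times the control level (0.418 to 0.454). Taken over both papilla clusters the ratio was 1.92 (1.88 to 1.96). Dermal sheath cup-like cells had 88.3 and 216 CPM (ratio 2.44, 1.96 to 3.07), over a mix of cells that differed between the libraries, as given with Edn3. That class had the sheath cup markers Acan and Adamts18 among its leading genes, but its summed sheath cup markers, 1797 and 1981 CPM, were below those in DPC-like cells (2875 and 5139), so its name is uncertain. The difference between the clusters was not tested, and which of the papilla clusters a cell joined moved the ratio by more than the counting error.

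The share of DPC-like cells with agouti differed more than the amount in such cells. After thinning, 253 of 1969 control cells had an agouti UMI (12.8%, 11.4 to 14.4), as did 238 of 442 TP cells (53.8%, 49.1 to 58.6). Thinned cells with an agouti UMI had a mean of 6.48 of them in control and 7.54 in TP. In control the 10% of DPC-like cells with the most agouti UMIs held 97.5% of them, and in TP they held 62.1%. In the Luzp2 and Sostdc1 cluster 20.7% of thinned control cells and 15.9% of thinned TP cells had agouti, with means of 7.91 and 4.56 UMIs. Lymphocyte-like cells gave a background of 3.04% and 1.24%.

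DPC-like cells fell into 2 subclusters, and agouti was higher in TP in both. Subcluster 0, led by Gabrg3 and Adgrv1, held 1943 control and 316 TP cells, with agouti at 582 and 3615 CPM (ratio 6.22, 5.93 to 6.52). Subcluster 1, led by Zfp36, Ccn1 and other immediate-early genes, held 379 and 199 cells, with agouti at 2946 and 6457 CPM (ratio 2.19, 2.11 to 2.27). Subcluster 1 made up 16.3% of control and 38.6% of TP DPC-like cells, and with control weights in both libraries the agouti ratio was 3.78. With finer clustering of all cells (resolution 2), DPC-like cells were split otherwise. A cluster with Vip, Ndnf and agouti among its leading genes held 936 control and 380 TP cells, and one led by Cdh22 held 1394 and 144. Agouti ratios within those clusters were not computed, so the weighted ratio rests on the subclusters chosen. Median depth in DPC-like cells was 2029 UMIs in control and 4932 in TP, Malat1 took 3.02% and 3.55% of UMIs, and ribosomal protein genes took 8.81% and 7.91%. In the same cells summed germinative layer markers stood at 1152 and 2110 CPM, inner root sheath markers at 2364 and 382 and cycling markers at 694 and 197, beside the sheath cup markers given above. The part of these differences was not tested, and agouti in TP was 4.87 times the control level after thinning to equal depth.

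Edn3 (chr2:174760619-174784042) showed another pattern. In DPC-like cells it stood at 392 CPM in control (376 to 408) and 581 in TP (554 to 608), which gave 1.48 times as much in TP (1.39 to 1.58). The Luzp2 and Sostdc1 cluster had more of it in both libraries, 1243 and 1048 CPM, with a ratio of 0.844 (0.809 to 0.880). Over both papilla clusters the ratio was 1.06 (1.02 to 1.09). Dermal sheath cup-like cells stood at 1061 in control, beside the Luzp2 and Sostdc1 cluster, and at 218 in TP, which is 0.205 times the control level (0.187 to 0.226). In that class, on 346 control and 640 TP cells, summed papilla markers were 6038 and 4002 CPM and summed upper hair follicle markers, Sostdc1 among them, were 3509 and 759. With finer clustering (resolution 2), the dermal sheath cup-like cells were split. A cluster led by Gpc5 and Dkk2 held 30 control and 492 TP cells, and one led by Lrrc15 and Acan held 310 and 144. The libraries were thus compared over different mixes of cells. The part of the markers and of this mix in the Edn3 and agouti ratios of this class was not tested.

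Agouti and Edn3 were also counted in the same cells. Of thinned DPC-like cells, 4.62% in control had both genes, 8.23% agouti alone and 19.7% Edn3 alone. In TP these shares were 19.7%, 34.2% and 11.99%. In the Luzp2 and Sostdc1 cluster Edn3 alone was the most frequent of the 3, with 43.8% of control and 43.3% of TP cells.

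**Figure D4:**
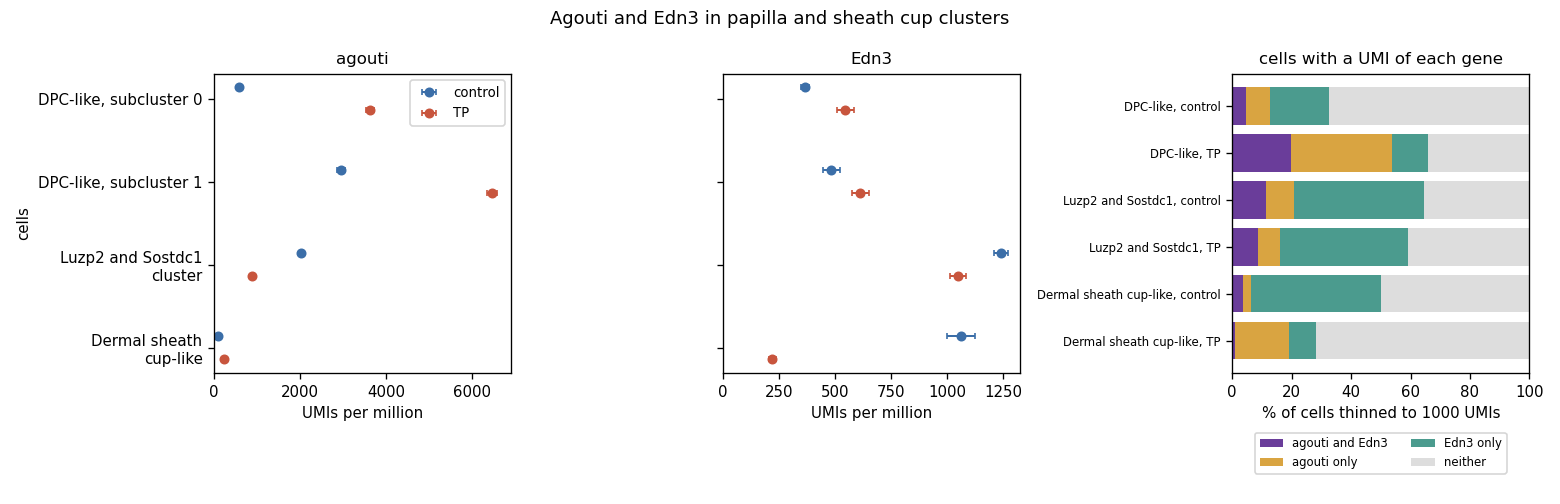
CPM of agouti (left) and Edn3 (middle) in the 2 DPC-like subclusters, the Luzp2 and Sostdc1 cluster and dermal sheath cup-like cells, control in blue and TP in red with exact Poisson 95% intervals, and the share of cells thinned to 1000 UMIs with a UMI of each gene (right). Agouti lies higher in TP in both DPC-like subclusters and lower in the Luzp2 and Sostdc1 cluster (2008 against 874).

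Against the other genes of DPC-like cells, 3.17% of the 11301 genes with at least 50 UMIs passed 2-fold higher in TP and 6.36% passed 2-fold lower, with a median log2 ratio of -0.10. Of the 3 papilla-side genes, agouti was past 2-fold higher, Kitl past 2-fold lower from a low level, as given further on, and Edn3 neither. The papilla list had 12 genes, of which 8 had at least 50 UMIs, 2 were past 2-fold higher and none was past 2-fold lower, with a median log2 ratio of -0.14. The higher genes were transcription factors, Sox18 at 12.2 and 74.4 CPM (ratio 6.12, 4.67 to 8.09) and Sox2 at 11.3 and 30.2 (ratio 2.67, 1.93 to 3.71). Sox2 is known from the papillae of some hair types and Sox18 from papilla and endothelial cells. Corin, a papilla protease that limits agouti activity, stood at 2831 CPM in control and 1483 in TP, which is 0.524 times the control level. In the Luzp2 and Sostdc1 cluster Corin was at 3123 and 2167. Atrn, an accessory receptor for agouti, was at 134 and 120 CPM in DPC-like cells and at 175 and 125 in melanocyte-like cells. Pomc, the precursor of the melanocortin that activates Mc1r, had 30 UMIs in all control cells and 27 in all TP cells.

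Kitl (chr10:100015615-100100416) had its highest levels in epithelial and vascular cells of these libraries and not in papilla cells. Medulla and companion layer-like cells had 2330 CPM in control (2277 to 2384) and 2651 in TP (2587 to 2715), which is 1.14 times the control level (1.10 to 1.18), and held 59.2% and 48.6% of all Kitl UMIs. After thinning, 66.3% of 820 control cells and 76.6% of 299 TP cells of this class had a Kitl UMI. The vascular endothelial cluster followed, at 637 (66 cells) and 660 (64 cells) CPM. Kitl was also seen in the SMC-like class, mixed with Schwann-like cells (190 and 197 CPM, 16.3% and 17.9% of thinned cells). It was seen in DF-like cells (155 and 101 CPM, 14.3% and 8.37%) and myeloid-like cells (124 and 82.4 CPM, 15.3% and 7.62%) as well. DPC-like cells had 34.3 and 14.3 CPM, with a UMI in 2.44% and 1.13% of thinned cells. Lymphocyte-like cells had 4.05% and 0.830%, with intervals that overlapped those of DPC-like cells. That reference class is mixed with myeloid-like cells, so the overlap cannot show that the papilla level is background. The control DPC-like share (1.80 to 3.22%) lay above that of IFE suprabasal-like cells (0.542 to 1.65%). It overlapped those of upper hair follicle-like (1.45 to 3.47%) and inner root sheath-like cells (1.49 to 2.24%).

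Other epithelial classes differed in direction. Among those where Kitl was higher in TP, it stood at 51.8 and 161 CPM in outer bulge-like cells (ratio 3.10, 2.48 to 3.92), at 94.5 and 214 in germinative layer-like cells (ratio 2.27, 1.89 to 2.71) and at 138 and 264 in the unnamed cluster led by Edar and Ntn1 (ratio 1.92, 1.73 to 2.14). It was lower in TP in upper hair follicle-like cells (39.3 and 10.4 CPM), inner root sheath-like cells (17.5 and 10.9) and IFE suprabasal-like cells (15.9 and 8.98). A UMI was seen in 2.31%, 1.84% and 0.989% of thinned control cells of these classes and in 1.12%, 0.498% and 0.700% of TP cells. Lymphocyte-like cells had 4.05% and 0.830%, so none of these shares could be shown to lie above that mixed class. In outer bulge-like cells 4.198% of thinned control cells and 12.1% of thinned TP cells had a Kitl UMI, so the control share was near that of the mixed class too.

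Kit was detected in hair matrix keratinocytes as well as in melanocytes. Germinative layer-like cells, which express Shh, had 836 Kit UMIs in control and 102 in TP, or 285 (266 to 305) and 95.8 (78.1 to 116) CPM, a ratio of 0.336 (0.271 to 0.413). They had 2.51 and 2.43 Kit UMIs per Dct UMI, against 0.0625 and 0.0559 in melanocyte-like cells. A Kit UMI was seen in 24.5% of 1177 thinned control cells and 10.1% of 198 thinned TP cells, beside 4.73% and 1.24% in lymphocyte-like cells. With a mitochondrial limit of 5% the Kit ratio in this class was 0.191. Kit was also lower in TP in the Edar and Ntn1 cluster (166 and 95.7 CPM, ratio 0.577), in inner root sheath-like cells (78.4 and 37.7, ratio 0.481) and in the cycling clusters of the follicle (107 and 43.1, ratio 0.404). Shares of thinned cells with a Kit UMI were 14.5% and 11.2%, 7.73% and 5.48%, and 10.4% and 3.49% in these classes, and their intervals overlapped in the Edar and Ntn1 cluster and in inner root sheath-like cells. Dct, read as background in these cells, had ratios of 0.347, 0.251, 0.200 and 0.289 in germinative layer-like cells and these 3 classes, and its part in the lower Kit levels was not tested. Mast cells, another Kit-expressing type, were scarce. UMIs of at least 2 mast cell markers were found in 3 control and 4 TP cells, which had 0 and 4 of the Kit UMIs.

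**Figure D5:**
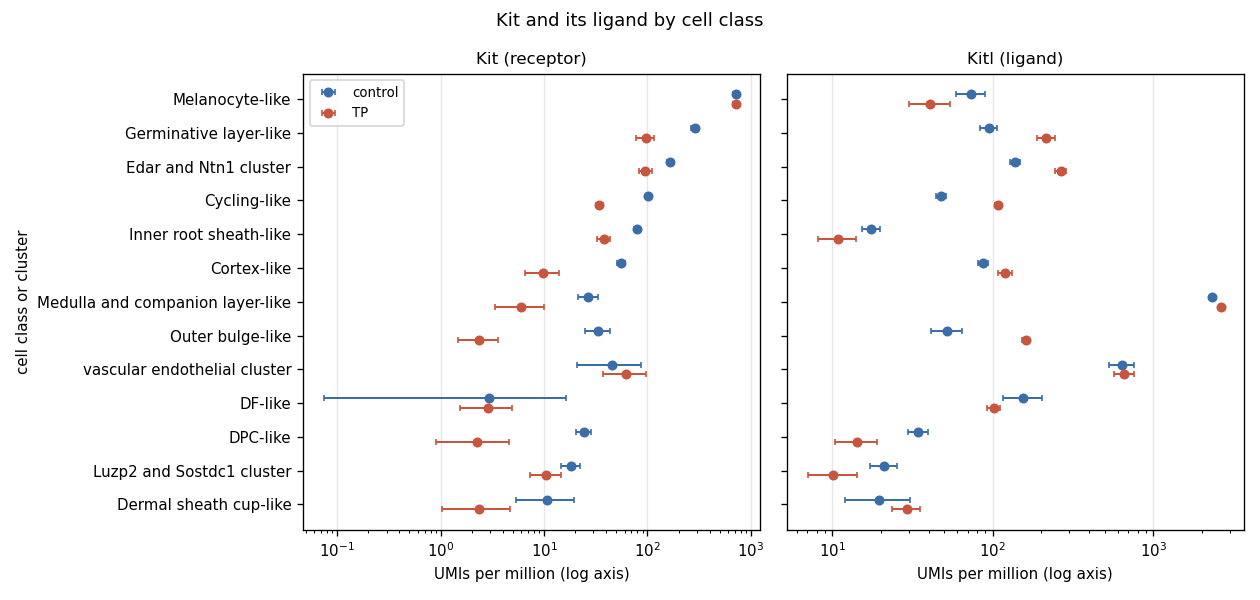
CPM (log axis) of Kit (left) and Kitl (right) in 13 cell classes or clusters, control in blue and TP in red, with exact Poisson 95% intervals and no point where no UMI was counted. Kit is lower in TP in germinative layer-like cells (285 and 95.8) and level in melanocyte-like cells (722 and 715), and Kitl is highest in medulla and companion layer-like cells.

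Over all kept cells 3 of the 10 genes were at least 2-fold lower in TP and none was at least 2-fold higher, where 10.4% of 17593 genes were past 2-fold lower and 8.11% past 2-fold higher, with a median log2 ratio of -0.23. Kit stood at 74.0 and 17.2 CPM (ratio 0.233), Tyr at 43.3 and 18.5 (ratio 0.428) and Edn3 at 93.6 and 46.4 (ratio 0.496). With TMM scaling, which brought the median log2 ratio to 0.02, Tyr (0.509) and Edn3 (0.590) fell short of 2-fold. Shares of cell classes moved with these values: germinative layer-like cells made up 3.13% of control and 1.08% of TP cells, DPC-like cells 5.94% and 2.78%, and cycling clusters of the follicle 12.4% and 7.16%. With clusters weighted as in control, the ratios were 0.497 for Kit, 0.541 for Tyr and 0.880 for Edn3, and agouti, at 168 and 155 CPM (ratio 0.925), went to 1.98.

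Genes with the most similar pattern to each member were sought over the 17 named classes in both libraries, 34 points that share library and depth, by Pearson's r of log2(CPM + 1). Dct, Tyrp1 and Pmel were each most like one another, Ptgds or Slc24a5, with r between 0.962 and 0.981, and Tyr was most like Oca2 (r = 0.973). Agouti was most like Pax1 (r = 0.949), Mc2r and Cntn3, and Edn3 most like Inhba (r = 0.943), Ncam2 and Fgf10. Mitf was most like Cd63 (r = 0.864), Kit most like Cftr (r = 0.836), Mc1r most like Syt4 (r = 0.916) and Kitl most like Fabp4 (r = 0.731). Patterns of Kitl, Kit and Mitf were thus less closely matched by any gene than those of the pigment enzymes.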

How the data were processed

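Control and TP libraries of dorsal skin, each from 15 pooled mice, were analysed. The deposited values are UMI counts per gene and barcode made by the authors with Cell Ranger 8.0.1 on mm10 (GRCm38), not normalized, and total 130999979 and 166929585 UMIs. Barcodes had to show between 200 and 8000 genes and no more than 10% mitochondrial UMIs. Doublets were then scored by the share of simulated doublets among each barcode's nearest neighbours, and the top 7.5% were dropped. Seurat 5.3.0 (R 4.3.3) integrated both libraries by reciprocal PCA (2000 features, 30 components) and clustered them at resolution 1 into 30 clusters, of which 7 stayed unnamed. The 53 members and list genes were kept out of the features. A name needed a marker score of 1.5, a limit set after clusters had been seen. Members and lists were chosen with earlier results of these data known. Pathway genes are named where past 2-fold in their class, with Ednrb, Corin, Pomc and Atrn named whatever their values. Sums of counts per class were divided by the class total (CPM). Intervals are Poisson for levels, Clopper-Pearson for shares and conditional binomial for ratios. edgeR 4.0.16 gave TMM factors only. Python 3.11.15 with scipy 1.17.1 was used, and the fold calls were tested on simulated data. Gene positions are from RefSeq (GRCm38.p6).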

Additional observations from a re-analysis of the deposited data

How the results depend on the processing

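Values are TP to control ratios. With TMM scaling, melanocyte-like cells gave 1.38 for Mitf, 1.23 for Dct, 0.720 for Tyr, 1.15 for Tyrp1, 1.80 for Pmel and 1.10 for Kit, DPC-like cells 4.87 for agouti and 1.59 for Edn3, and medulla and companion layer-like cells 1.24 for Kitl. As a mean over cells the values were 1.43 for Mitf, 1.21 for Dct, 1.82 for Pmel, 4.74 for agouti and 1.39 for Kitl. Thinning to 1000 UMIs gave 1.39 for Mitf, 1.204 for Dct, 0.525 for Tyr, 1.68 for Pmel, 4.87 for agouti, 1.32 for Edn3, 1.33 for Kitl and 0.434 for Kit in germinative layer-like cells. A mitochondrial limit of 5% gave 1.07 for Dct, 0.984 for Tyrp1, 1.51 for Pmel, 4.38 for agouti, 1.08 for Kitl and 0.191 for germinative layer Kit. Removing 15% as doublets, which left 68 control and 143 TP melanocyte-like cells, gave 2.48 for Mitf, 3.79 for Dct, 2.16 for Tyr, 4.19 for Tyrp1, 8.34 for Pmel, 2.34 for Kit, 7.95 for Mc1r, 1.23 for Kitl and 4.43 for the share of melanocyte-like cells. Subclusters weighted as in control gave 1.05 for Mitf, 0.917 for Dct, 0.782 for Tyr, 0.786 for Tyrp1, 1.21 for Pmel, 0.858 for Kit, 1.23 for Mc1r and 3.78 for agouti. Cells with at least 2 naming markers gave 1.42 for Mitf, 1.28 for Dct, 0.756 for Tyr, 1.202 for Tyrp1 and 1.87 for Pmel, and a share of 0.569 after thinning. Both papilla clusters together, an alternative added after seeing the data like those for Kitl in medulla and Kit in germinative layer-like cells, gave 1.92 for agouti and 1.06 for Edn3, and resolution 2 gave 1.19 for Kitl. Over all cells, direction turned for Pmel (1.03), Mc1r (1.12), Kitl (1.27) and agouti (1.98) with clusters weighted as in control, and for Kitl (1.05) and agouti (1.10) with TMM. Except where cell numbers are given, the cause was not tested. Of 147 alternative values, 68 stayed within the counting interval of the reported value or within 1.5 times a gene count, 71 moved, and 8 crossed 1 for a ratio whose counting interval lay apart from 1. Tyrp1 and Kit in melanocyte-like cells, whose intervals included 1, crossed it as well, Tyrp1 at 0.984 and 0.786 and Kit at values from 1.02 to 2.34. At resolution 2 the ratios of the 7 genes in melanocyte-like cells and the share of these cells repeated the reported values exactly. They are counted among the values that stayed but are no separate check. Genes past 2-fold lower over all cells went from 1821 to 1026 with TMM. In melanocyte-like cells, genes past 2-fold higher went from 313 to 533 with a filter of 20 UMIs and 531 with TMM, and lower from 619 to 1004 and 408. With 1 library a group, no replicate could be left out. No paired analysis was possible because each group is 1 library. Mc1r, with 298 and 490 UMIs in melanocyte-like cells, had the widest counting interval of the 7 genes there.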
